A study of Homo sapiens with 11 samples.

Results

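The genes described here are the brakes and the engine of the G1 phase of the cell cycle: the cyclin-dependent kinase (CDK) inhibitors CDKN1A, CDKN1B, CDKN1C, CDKN2C and CDKN2D, the D-type cyclins CCND1, CCND2 and CCND3, and their kinase partners CDK4 and CDK6. All probes annotated to these 10 gene symbols were taken, whatever their values, which gave 13 probes of 9 genes among 48107 probes. No probe was annotated to CDKN2C, and it was not analysed here. SK-N-BE(2)-C, a human neuroblastoma line with amplified MYCN, was the source of all RNA, which was measured on 11 Illumina HT-12 v4 BeadChip arrays, on which short probes on beads bind labelled RNA. Of these, 3 arrays held cells given 500 nM of the histone deacetylase inhibitor vorinostat for 24 h, 3 cells given the solvent DMSO for 24 h, 2 cells given 500 nM vorinostat for 6 d, and 3 cells given DMSO for 6 d. All samples are of a single cell line, and a vorinostat array at 6 d with the number 1 was not analysed here.

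D-type cyclins bind CDK4 or CDK6, and the complex phosphorylates the retinoblastoma protein, which then releases E2F transcription factors to switch on the genes of DNA replication. The CIP/KIP inhibitors p21 (CDKN1A), p27 (CDKN1B) and p57 (CDKN1C) bind CDK complexes and block them, while the INK4 inhibitors p18 (CDKN2C) and p19 (CDKN2D) bind CDK4 and CDK6 and keep the cyclin out. CDKN1A is known as a gene that histone deacetylase inhibitors induce through GC boxes near its start to which Sp1 and Sp3 bind. CCND1 is highly expressed in most neuroblastomas.

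The promoters of CDKN1A, CDKN1B and CDK4 are shown because these are the members whose response to vorinostat differed between 24 h and 6 d. The table of RefSeq promoters used here (build GRCh38.p14) held 7 of the 10 genes. Each sequence is the 250 bases before the annotated start, on the strand of the gene, with capitals for GC boxes (GGGCGG on either strand) and E-boxes (CACGTG, which reads the same on both strands and is the site that MYC and MYCN are known to bind).
CDKN1A, chr6:36678464-36678713, plus strand: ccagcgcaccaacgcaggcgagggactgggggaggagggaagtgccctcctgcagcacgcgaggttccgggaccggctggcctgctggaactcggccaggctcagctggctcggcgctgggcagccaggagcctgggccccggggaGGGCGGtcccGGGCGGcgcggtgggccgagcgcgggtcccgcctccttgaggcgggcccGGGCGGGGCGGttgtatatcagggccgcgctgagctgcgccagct
CDKN1B, chr12:12717118-12717367, plus strand: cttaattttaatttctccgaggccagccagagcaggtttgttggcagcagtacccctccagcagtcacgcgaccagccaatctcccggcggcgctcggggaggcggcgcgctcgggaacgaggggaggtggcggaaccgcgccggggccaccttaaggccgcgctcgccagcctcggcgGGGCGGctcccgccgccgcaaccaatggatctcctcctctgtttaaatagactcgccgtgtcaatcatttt
CDK4, chr12:57752311-57752560, minus strand: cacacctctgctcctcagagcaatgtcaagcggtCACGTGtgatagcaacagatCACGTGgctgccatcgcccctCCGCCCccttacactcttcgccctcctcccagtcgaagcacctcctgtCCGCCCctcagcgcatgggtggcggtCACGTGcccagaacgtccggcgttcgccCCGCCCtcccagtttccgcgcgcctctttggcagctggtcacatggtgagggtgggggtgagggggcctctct
The CDKN1A sequence held 4 GC boxes and no E-box, and the pair nearest the start share a base. The CDKN1B sequence held 1 GC box and no E-box, and the CDK4 sequence 3 of each motif, its GC boxes reading CCGCCC on this strand. Among 35116 promoters cut to the same length, 42.6% had at least 1 GC box and 7.63% at least 4. An E-box was present in 6.34% of them, and 28 had 3 or more. These matches describe the letters only, and no binding was measured.

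Before normalization the arrays had mean intensities of 401 to 413 with vorinostat and 272 to 302 with DMSO at 24 h, and 283 and 338 with vorinostat and 323 to 383 with DMSO at 6 d. The 24 h arrays of vorinostat lay on one BeadChip and those of DMSO on another, so chip and treatment cannot be told apart there. All arrays of 6 d shared a further chip. Intensities were corrected for background, quantile normalized and taken as log2. The 17049 probes that all arrays of 1 or more groups detected were tested with limma in 1 fit of 4 groups, and a probe was called at a Benjamini-Hochberg adjusted p under 0.05 over all of them. Between 15944 and 18693 probes were detected per array, and precision is limited by the number of arrays. All 9 neuroblastoma markers with a probe were detected on every array. Of 8 haematopoietic, endothelial and epithelial markers CD14 was detected on all 11 arrays, EPCAM on 5 and the others on at most 2. Nothing in the labels says that the arrays of 6 d came from separate cultures, so p-values measure the spread between these samples, which may be technical.

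At 24 h the change of this gene set lay in CCND1, which was higher in vorinostat-treated cells, and in CDKN1B, of which 1 of 2 probes was lower. Of 13 probes 8 were bright enough to test, 1 was called higher and 1 lower. Among all probes tested at 24 h, 13.5% were called higher and 9.42% lower (2301 and 1606 probes), so 1 of 8 in each direction is close to that background. With arrays scaled by their medians the counts of all probes were 1656 higher and 2933 lower, and the same member probes were called together with CDK4, as lower. The median log2 fold change was -0.08 over the 8 member probes and 0.03 over all probes tested. In such bulk RNA, fewer cells of a kind and less RNA per cell cannot be told apart. The plot of levels by array shows the 8 probes in all 4 groups.

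**Figure D1:**
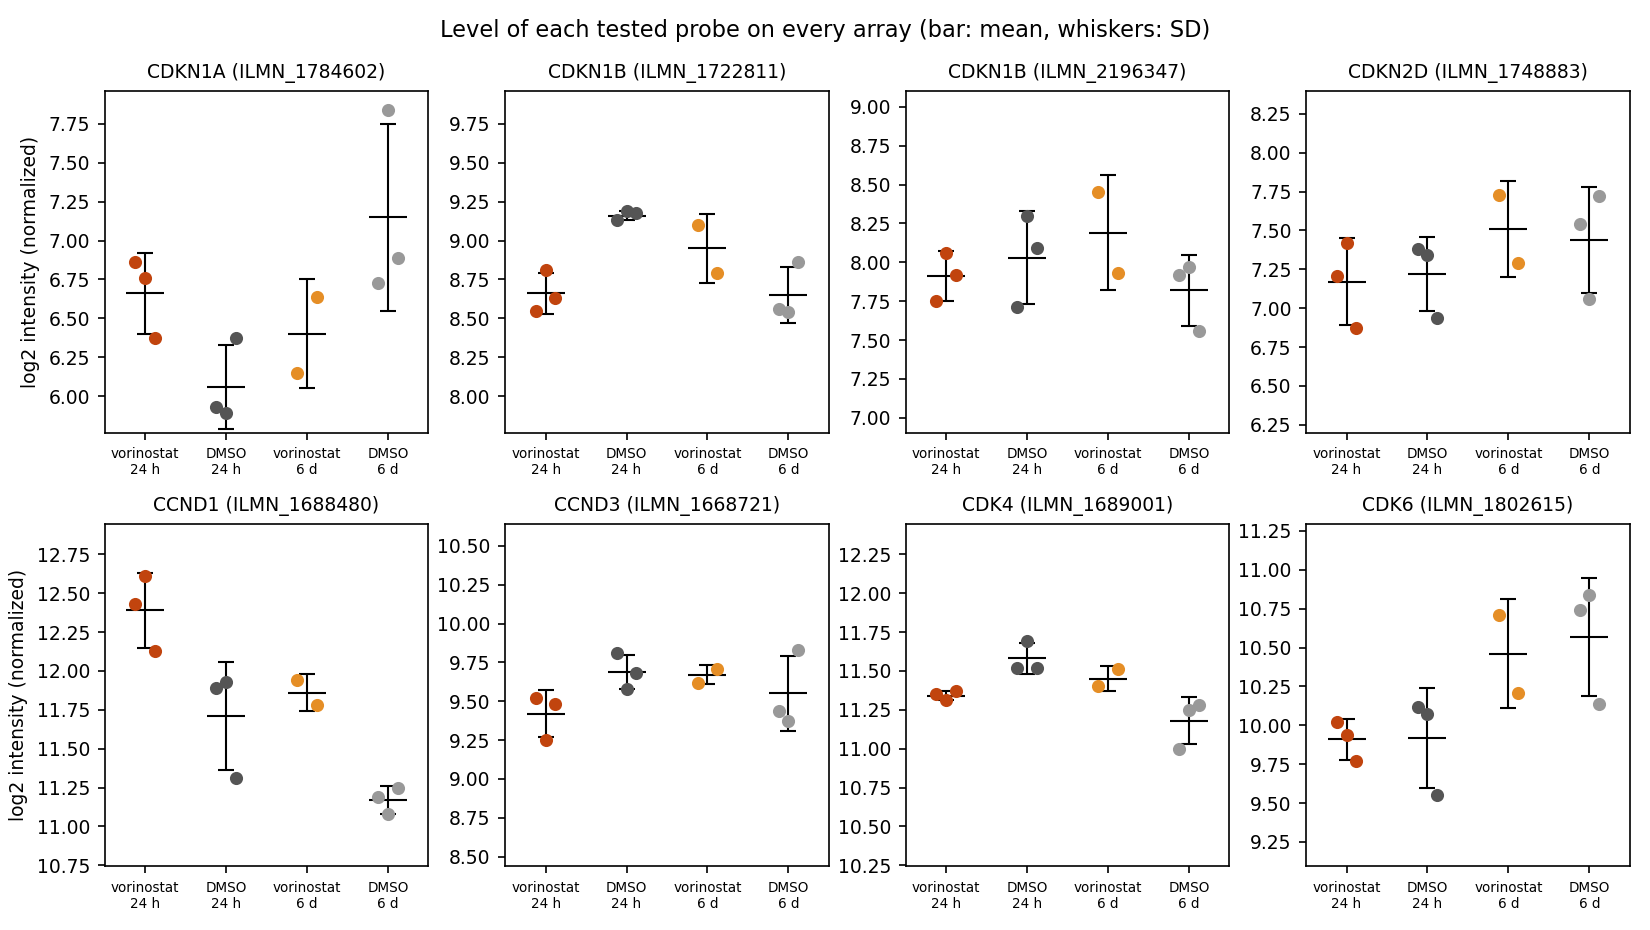
Normalized log2 intensity (y axis) of the 8 tested probes of CDK inhibitors, D cyclins, CDK4 and CDK6 on each array, by group (x axis). Points are arrays, horizontal bars means and whiskers SD (n = 3, and n = 2 for vorinostat at 6 d), and every panel spans the same range of log2 units. CCND1 lies higher with vorinostat than with DMSO at both times, and CDKN1A lies lowest with DMSO at 24 h and highest with DMSO at 6 d on average.

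CCND1 encodes cyclin D1, the activating partner of CDK4 and CDK6. Its probe (ILMN_1688480) had log2 intensities of 12.43, 12.61 and 12.13 with vorinostat, against 11.89, 11.93 and 11.31 with DMSO at 24 h. Every vorinostat array was above every DMSO array. The difference was 0.68 on the log2 scale (standard error 0.15, 95% confidence interval 0.37 to 0.99), or 1.60-fold, with an adjusted p of 0.00299 from limma. Before normalization the probe read 7037, 7998 and 5810 with vorinostat and 2837, 3389 and 2233 with DMSO, a wider gap on arrays that were also brighter as a whole with vorinostat.

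CDKN1B encodes p27, an inhibitor of CDK complexes that holds cells in G1. The brighter of its probes (ILMN_1722811) had log2 intensities of 8.55, 8.81 and 8.63 with vorinostat, against 9.13, 9.19 and 9.18 with DMSO. All vorinostat arrays were below all DMSO arrays, and the log2 fold change was -0.50 (standard error 0.13), with an adjusted p of 0.00917 from limma. This direction rests on the scaling between arrays. The non-normalized intensities ran the other way, with 603, 714 and 614 for vorinostat and 462, 585 and 546 for DMSO, while the log2 fold change lay between -0.57 and -0.44 in the 20 alternatives run, all of which normalize the arrays. Without vorinostat 24 h replicate 1 the adjusted p was 0.0535 from limma. The dimmer probe (ILMN_2196347) had 7.75, 8.06 and 7.92 with vorinostat and 7.71, 8.30 and 8.09 with DMSO. On this probe the groups overlapped, with a log2 fold change of -0.12 (95% confidence interval -0.50 to 0.26, adjusted p = 0.666 from limma), so the probes of CDKN1B did not give the same call.

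CDKN1A, which encodes p21, had log2 intensities of 6.86, 6.76 and 6.37 with vorinostat and 5.93, 5.89 and 6.37 with DMSO at 24 h (probe ILMN_1784602). The lowest vorinostat array and the highest DMSO array were at the same level to 2 decimals, and the other arrays lay apart. The log2 fold change was 0.60 (standard error 0.26, 95% confidence interval 0.05 to 1.15), or 1.52-fold, and missed the threshold (adjusted p = 0.107 from limma). It was called without DMSO 6 d replicate 2, which enters only through the shared estimate of spread (adjusted p = 0.0432 from limma), and in a fit of the 24 h arrays alone (adjusted p = 0.0470 from limma).

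Among the kinases and cyclin D3, no probe passed at 24 h. CDK4 (ILMN_1689001), the kinase that D cyclins activate, had 11.35, 11.31 and 11.37 with vorinostat and 11.52, 11.69 and 11.52 with DMSO. The groups did not overlap, but the log2 fold change of -0.23 (standard error 0.09) had an adjusted p of 0.0876 from limma, and the non-normalized intensities again ran the other way (3434 to 3512 with vorinostat and 2166 to 2830 with DMSO). With arrays scaled by their medians the adjusted p was 0.0299 from limma, and in a fit of the 24 h arrays alone 0.0431. CCND3 (ILMN_1668721), which encodes cyclin D3, had 9.52, 9.25 and 9.48 with vorinostat and 9.81, 9.58 and 9.68 with DMSO (log2 fold change -0.27, adjusted p = 0.131 from limma). CDK6 (ILMN_1802615), the other kinase partner of the D cyclins, averaged 9.91 ± 0.13 with vorinostat and 9.92 ± 0.32 with DMSO (SD, n = 3 each), and the interval of the log2 difference ran from -0.39 to 0.38. For CDKN2D (ILMN_1748883), which encodes p19, the means were 7.17 ± 0.28 and 7.22 ± 0.24 with vorinostat and with DMSO (SD, n = 3 each), with an interval from -0.48 to 0.38.

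After 6 d CCND1 was again higher with vorinostat, and it was the one member probe called. In all, 1 of 8 tested member probes was called higher and 0 lower by limma. At an unadjusted p under 0.05 there were 2 higher and 1 lower, and an analysis of variance per probe called 0. Of all probes tested at 6 d, 3% were called higher and 4.7% lower. The median log2 fold change was 0.20 over the 8 member probes and -0.01 over all probes tested. CCND1 had log2 intensities of 11.94 and 11.78 with vorinostat, against 11.19, 11.08 and 11.25 with DMSO, and the groups did not overlap. The difference of 0.69 (standard error 0.16, 95% confidence interval 0.34 to 1.03) was 1.61-fold, with an adjusted p of 0.0155 from limma. It lay above 0 before normalization too, at 3038 and 3738 with vorinostat and 2814, 2352 and 2374 with DMSO, although the vorinostat arrays were not the brighter ones at this time. The call was lost without vorinostat 6 d replicate 2 (adjusted p = 0.162 from limma) and was narrowly lost without replicate 3 of that group (0.0507) or replicate 1 of DMSO at 6 d (0.0559), where the log2 fold change was 0.60, 0.77 and 0.69.

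CDKN1A had log2 intensities of 6.15 and 6.64 with vorinostat at 6 d, against 6.73, 7.84 and 6.89 with DMSO. The groups did not overlap, and DMSO replicate 2 stood well above the other arrays. The log2 fold change of -0.75 (standard error 0.29, 95% confidence interval -1.37 to -0.14) did not pass (adjusted p = 0.122 from limma). CDK4 had 11.40 and 11.51 with vorinostat and 11.18 ± 0.15 as mean and SD of the 3 DMSO arrays, all below both vorinostat arrays, with a log2 fold change of 0.27 (standard error 0.11, adjusted p = 0.125 from limma). Before normalization CDK4 read 2086 and 3108 with vorinostat and 2528, 2622 and 2422 with DMSO, so the groups overlapped, with a log2 difference of 0.01. Both CDKN1B probes had positive normalized values that did not pass. In non-normalized log2 intensity their differences were -0.09 and -0.04, with a median of -0.19 over all probes tested. The brighter one had 9.10 and 8.79 with vorinostat and 8.56, 8.54 and 8.86 with DMSO (log2 fold change 0.29, adjusted p = 0.222 from limma), and the dimmer one differed by 0.38 (adjusted p = 0.271 from limma). The values of CCND3, CDKN2D and CDK6 were 0.12, 0.07 and -0.11 on the log2 scale, with adjusted p from 0.666 to 0.890 from limma.

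The effect of vorinostat at 6 d was then set against its effect at 24 h, in the test of the difference itself. Since chip and treatment cannot be told apart at 24 h, they cannot be told apart in this difference either. CDKN1A was the member whose response was lower at 6 d, by a log2 difference of -1.35, while the responses of the brighter CDKN1B probe and of CDK4 were higher at 6 d. That is 2 probes higher and 1 lower of 8, where 11.1% of all probes tested were higher and 15.1% lower, and their adjusted p-values were 0.0171 for CDKN1A, 0.00585 for CDKN1B and 0.0152 for CDK4 from limma. The confidence interval ran from -2.18 to -0.53 for CDKN1A, from 0.39 to 1.20 for CDKN1B and from 0.20 to 0.80 for CDK4. The directions for CDKN1B and CDK4 rest on the scaling between arrays. In non-normalized log2 intensity the difference was -0.37 for this CDKN1B probe and -0.45 for CDK4, with a median of -0.62 over all probes tested, so both turned sign and lay above that median. For CDKN1A it was -1.33 on that scale. For CCND1 the normalized difference was 0.01 with an interval from -0.45 to 0.47, so that a change of its response of up to that size in either direction was not resolved. Its equal response at both times rests on the scaling between arrays. In non-normalized log2 intensity its effect was 1.31 at 24 h and 0.43 at 6 d, a difference of -0.88. With arrays scaled by their medians the difference was 0.33 (adjusted p = 0.246 from limma). The CDKN1A call was lost without vorinostat 6 d replicate 2 (-1.11, adjusted p = 0.0982 from limma) and the CDK4 call without vorinostat 6 d replicate 3 (0.45, adjusted p = 0.0636). The summed intensity of 8 mesenchymal or Schwann-like markers was 2257 to 2801 with vorinostat and 1784 to 2104 with DMSO at 24 h, and 2191 to 2396 with vorinostat and 2532 to 3149 with DMSO at 6 d. Of these, TWIST1, SNAI2 and CD44 were detected on every array, and SOX10 and S100B on none. TWIST1 made up most of each sum and was the only tested probe of the list called. Its log2 fold change was 0.49 at 24 h (adjusted p = 0.00761 from limma) and -0.30 at 6 d (adjusted p = 0.195). The difference of its effects was -0.79 (adjusted p = 0.00452 from limma). Other members differed, with log2 fold changes at 6 d of 0.74 and 0.95 for the SNAI2 probes and -0.56 for CD44, none of which passed. The median over the 4 tested probes was 0.17 at 24 h and 0.22 at 6 d. The sum of the 8 haematopoietic, endothelial and epithelial markers was 230 to 266 with vorinostat and 193 to 250 with DMSO at 24 h, and 221 to 250 with vorinostat and 273 to 328 with DMSO at 6 d, with CD3E, PECAM1 and CDH5 detected on no array. CD14 had 0.54 at 24 h and -0.55 at 6 d, neither of which passed, and a difference of -1.08 (adjusted p = 0.0160 from limma). The difference for EPCAM, the other tested probe of the list, was -0.80 (adjusted p = 0.123 from limma). The sum of the 9 neuroblastoma markers was 42787 to 45892 with vorinostat and 40041 to 41019 with DMSO at 24 h. At 6 d it was 42645 to 44003 and 38949 to 40714. Of their 11 tested probes 3 were higher in the difference, 0 lower and 8 not called. These were DBH (-0.49 at 24 h, 1.19 at 6 d, difference 1.69, adjusted p = 2.52e-05 from limma) and the TH probes (differences 1.68 and 2.02, adjusted p = 0.00159 and 0.000279). The part of these marker lists in the result was not tested. The dimmer CDKN1B probe had a difference of 0.50 with an interval from -0.07 to 1.06 (adjusted p = 0.185 from limma).

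**Figure D2:**
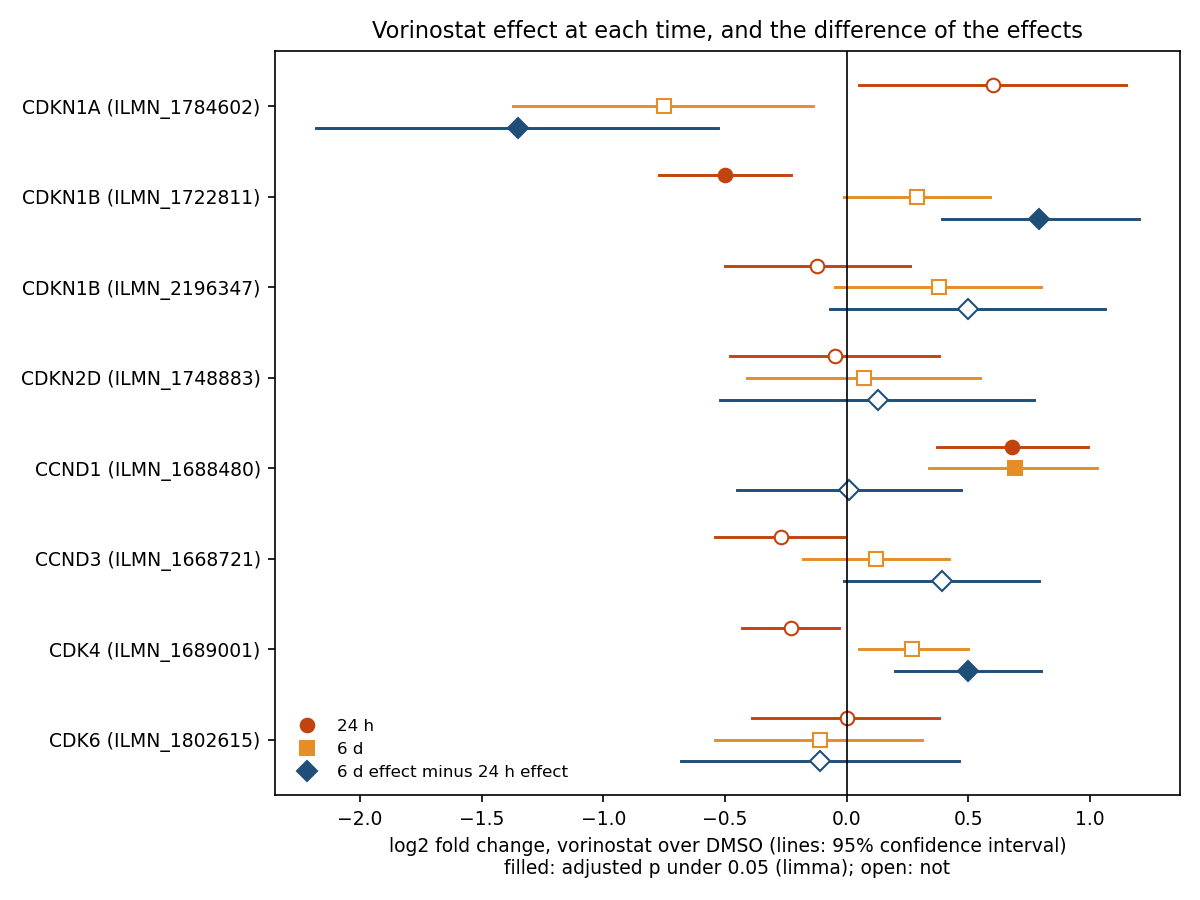
Log2 fold change of vorinostat over DMSO (x axis) at 24 h (circles) and 6 d (squares), and the 6 d effect minus the 24 h effect (diamonds), for each tested probe (y axis), with 95% confidence intervals from limma. Filled symbols have an adjusted p under 0.05. CCND1 is at 0.68 and 0.69, while CDKN1A is at 0.60 at 24 h and -0.75 at 6 d.

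Each of these differences equals the change with time under vorinostat minus that under DMSO. On the normalized scale the change under DMSO was the larger of the pair for CDKN1A, CDKN1B and CDK4. Between DMSO at 6 d and DMSO at 24 h, 5 member probes were called, 2 higher and 3 lower, where 13.7% of all probes tested were higher and 11% lower. CDKN1A averaged 7.15 ± 0.60 in DMSO at 6 d and 6.06 ± 0.27 in DMSO at 24 h (SD, n = 3 each), a log2 difference of 1.09 (adjusted p = 0.00599 from limma), and every array of 6 d lay above every array of 24 h. CDK6 had 10.74, 10.84 and 10.14 in DMSO at 6 d and 10.12, 10.07 and 9.55 in DMSO at 24 h, ranges that just missed each other, with a difference of 0.66 (adjusted p = 0.0137 from limma). With vorinostat it had 10.71 and 10.21 at 6 d and 10.02, 9.94 and 9.77 at 24 h, a difference of 0.55 that did not pass (adjusted p = 0.0698 from limma). The brighter CDKN1B probe fell by 0.51, CCND1 by 0.54 and CDK4 by 0.40 on the normalized log2 scale (adjusted p = 0.00754, 0.0123 and 0.00595 from limma). For CDKN1B and CDK4 these falls rest on the scaling between arrays. Their mean non-normalized log2 intensities in DMSO at 24 h and 6 d were 9.05 and 9.03, and 11.30 at both times. With vorinostat they were 9.33 and 8.94, and 11.76 and 11.31, so on that scale the change under vorinostat was the larger. For CCND1 the DMSO means were 11.44 and 11.29. The CCND1 call was lost without DMSO 24 h replicate 1 (0.0666) or replicate 2 (0.0607), and the CDK6 call without DMSO 24 h replicate 3 (0.0678), DMSO 6 d replicate 1 (0.0693) or DMSO 6 d replicate 2 (0.0636). In vorinostat-treated cells 1 of 8 probes was called between 6 d and 24 h, and it was lower, where 6.99% of all probes were higher and 10.4% lower. That probe was CCND1, with 11.86 ± 0.12 at 6 d (SD, n = 2) and 12.39 ± 0.24 at 24 h (SD, n = 3), a log2 difference of -0.53 (adjusted p = 0.0323 from limma), so its level was lower at 6 d with either treatment. With arrays scaled by their medians, CCND1 lost this call (-0.33, adjusted p = 0.130 from limma) and CDK6 was called in its place (0.59, adjusted p = 0.0320). CCND1 also lost the call without vorinostat 24 h replicate 1 or 2 and without either vorinostat array of 6 d (adjusted p from 0.0899 to 0.173). CDKN1A differed by -0.27 between the times with vorinostat (adjusted p = 0.573 from limma). Time and BeadChip cannot be told apart in these comparisons. The order of the groups was vorinostat 24 h, vorinostat 6 d, DMSO 24 h and DMSO 6 d from the highest mean to the lowest for CCND1, and DMSO 6 d, vorinostat 24 h, vorinostat 6 d and DMSO 24 h for CDKN1A. The ranges of vorinostat 6 d and DMSO 24 h overlapped for CCND1, and those of all neighbours in the order overlapped for CDKN1A.

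The remaining 5 probes were too dim to test, and cyclin D2 and p57 were seen only at the edge of detection. The probe of CDKN1C (ILMN_1718565), which encodes p57, read 107, 109 and 112 before normalization with vorinostat and 120, 116 and 114 with DMSO at 24 h, where the background centres of these arrays lay at 99.3 to 101. It was detected on 2 of 3 DMSO arrays at each time and on no vorinostat array. At 6 d it read 107 and 114 with vorinostat and 115, 111 and 120 with DMSO, so the groups overlapped at that time. On the normalized scale its DMSO mean was 1.41-fold that of vorinostat at 24 h and 1.12-fold at 6 d. For this, vorinostat was taken at the dimmest detected signal of each array, or at the probe's own where that was higher. The mean log2 intensities were 5.06 with DMSO and 4.55 with vorinostat at 24 h, and 4.95 and 4.78 at 6 d. These are ratios near background and not lower bounds, and each DMSO mean includes an array without detection. No test was made of these ratios. Of the probes of CCND2, which encodes cyclin D2, one (ILMN_1667081) was detected on 1 DMSO array at each time and the other (ILMN_2067656) on none. A second probe of CDKN1A (ILMN_1787212) and a second probe of CDKN2D (ILMN_1740597) were detected on 0 of 11 arrays, so the values of CDKN1A and CDKN2D each rest on a single probe.

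**Figure D3:**
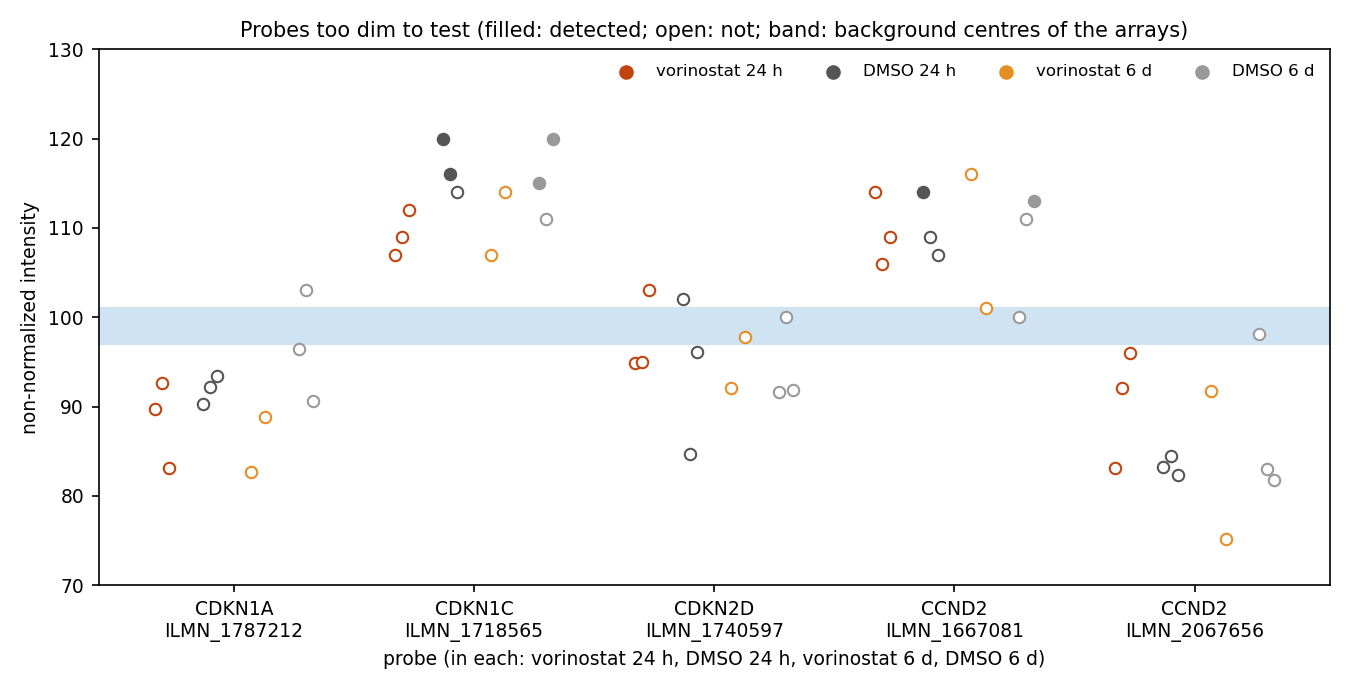
Non-normalized intensity (y axis) of the 5 probes that were too dim to test (x axis), by group in the order vorinostat 24 h, DMSO 24 h, vorinostat 6 d and DMSO 6 d. Each point is an array, filled where the probe was detected, and the band spans the background centres of the 11 arrays (97.0 to 101). Filled points appear only in DMSO, for CDKN1C and for 1 probe of CCND2.

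Around these genes stand the other proteins of the G1/S transition, such as E-type cyclins, retinoblastoma family members and E2F factors. They too were listed with earlier results of these data known, so the counts are a description only. Of 39 tested probes on a list of 30 such genes, 2 were higher and 2 lower with vorinostat at 24 h (median log2 fold change -0.07), with 3 and 10 at an unadjusted p under 0.05. Over all probes tested 13.5% were higher and 9.42% lower at that time. The higher ones were RBL2 (0.71) and RB1 (0.55), both pocket proteins that bind E2F, with adjusted p of 0.0174 and 0.0159 from limma. The lower ones were CDC25A (-0.71, adjusted p = 0.0120), a phosphatase that activates CDKs, and CUL1 (-0.50, adjusted p = 0.0167), a scaffold of the SCF ubiquitin ligase that marks p27 for destruction. At 6 d 4 probes of 3 genes were higher and 1 lower (median 0.11), against 3% and 4.7% of all probes, and in the test of the difference 9 were higher and 1 lower, against 11.1% and 15.1%. The probes called at 6 d were E2F7 (0.87, adjusted p = 0.0159), an E2F that represses, CDC25A (0.80, adjusted p = 0.0288) and both tested probes of SKP1 (0.78 for the one of larger change, adjusted p = 0.0107), with SKP2 as the lower one (-0.74, adjusted p = 0.0215). Other probes of the same genes did not pass, with -0.11 and -0.07 for SKP2 at 6 d (adjusted p = 0.518 and 0.929) and, for CDC25A, -0.55 at 24 h and 0.64 at 6 d (adjusted p = 0.110 and 0.159). SKP1 and SKP2 are further parts of the SCF complex that takes up p27. With arrays scaled by their medians the counts at 24 h were 3 higher and 9 lower. They were 0 higher and 1 lower without vorinostat 24 h replicate 2, 1 and 2 without vorinostat 24 h replicate 1 or 3 or DMSO 24 h replicate 3, 2 and 1 without DMSO 24 h replicate 1, and 0 and 2 by an analysis of variance per probe, which called 0 at 6 d. At 6 d limma called no probe of the list without DMSO 6 d replicate 1 or without vorinostat 6 d replicate 2, 2 higher and 1 lower without DMSO 6 d replicate 2, and 2 and 0 without vorinostat 6 d replicate 3.

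Genes that E2F switches on, most of which on this list serve DNA replication, were lower at 24 h and higher at 6 d where they were called. The list was chosen with earlier results of these data known, so its counts beside those of all probes are a description only. Of 21 tested probes of 15 such genes, 0 were higher and 4 lower at 24 h (median log2 fold change -0.19), and 3 were higher and 0 lower at 6 d (median 0.29). Of all probes tested 9.42% were lower at 24 h and 3% higher at 6 d. At an unadjusted p under 0.05 these were 1 and 7 at 24 h, and 7 and 0 at 6 d, and an analysis of variance per probe called 0 higher and 4 lower at 24 h and 0 at 6 d. TYMS, the thymidylate synthase, averaged 10.14 ± 0.10 with vorinostat and 11.22 ± 0.13 with DMSO at 24 h (SD, n = 3 each), or -1.07 in log2 fold change (adjusted p = 0.000110 from limma). At 6 d it averaged 10.89 ± 0.11 with vorinostat (SD, n = 2) and 10.03 ± 0.41 with DMSO (SD, n = 3), or 0.86 (adjusted p = 0.00527 from limma). MCM5 and MCM4, subunits of the replicative helicase, had -0.80 and -0.70 at 24 h and 0.73 and 0.70 at 6 d. A second probe of MCM4 had -0.33 and 0.33 and passed at neither time (adjusted p = 0.192 and 0.336 from limma). In the test of the difference 8 probes were higher and 0 lower by limma, where 11.1% and 15.1% of all probes were, and 11 and 0 at an unadjusted p under 0.05. Leaving out vorinostat 6 d replicate 2 took the count at 6 d to 0, and leaving out DMSO 6 d replicate 3 took it to 6. It was 2 without DMSO 6 d replicate 1 or 2 or without vorinostat 6 d replicate 3. At 24 h it was 6 lower with arrays scaled by their medians and 7 in a fit of that time alone. It was 3 lower without DMSO 24 h replicate 1 or 3 or vorinostat 24 h replicate 2. The count was also 3 lower with the brightest probe of each gene and without the filter on dim probes. With the replicate block, and without DMSO 24 h replicate 2, 1 probe was called higher at 24 h.

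**Figure D4:**
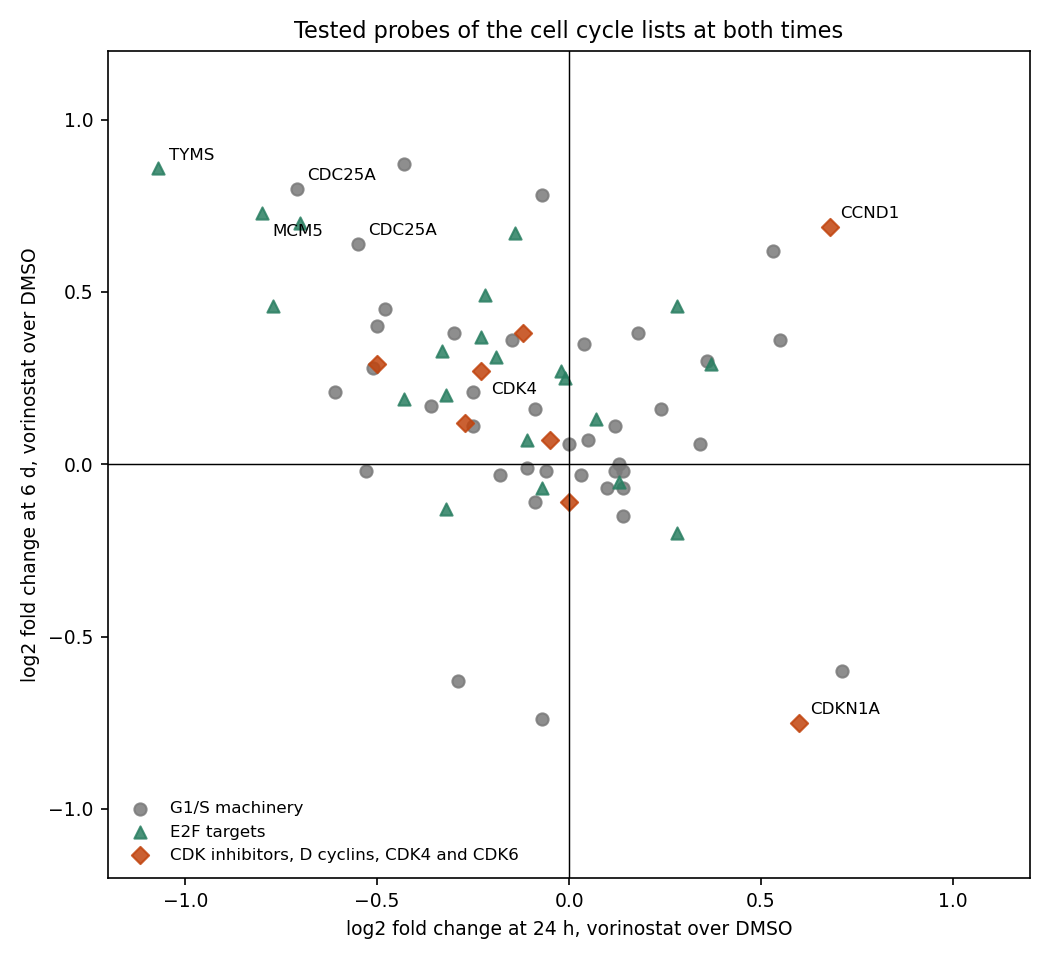
Log2 fold change of vorinostat over DMSO at 24 h (x axis) and at 6 d (y axis) of the tested probes of CDK inhibitors, D cyclins, CDK4 and CDK6 (diamonds), of the G1/S machinery (circles) and of E2F target genes (triangles). TYMS lies at -1.07 and 0.86, CCND1 at 0.68 and 0.69 and CDKN1A at 0.60 and -0.75.

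Factors known to act on CDKN1A or CCND1, among them SP1, SP3, MYCN, HDAC1 and HDAC2, were listed as well. Of 15 tested probes of 9 such genes 1 was higher and 0 lower at 24 h, and 0 were called at 6 d by limma, with 3 and 0 at 24 h and 2 and 0 at 6 d at an unadjusted p under 0.05. Of all probes 13.5% were higher and 9.42% lower at 24 h, and 3% and 4.7% at 6 d. The probe called was one of MYCN (ILMN_1653761), the amplified driver gene of this line, with 12.70 ± 0.14 with vorinostat and 12.21 ± 0.29 with DMSO at 24 h (SD, n = 3 each), or 0.49 in log2 fold change (adjusted p = 0.0193 from limma). A second MYCN probe differed by 0.20 and did not pass (adjusted p = 0.0752 from limma).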

How the data were processed

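Total RNA of SK-N-BE(2)-C cells was hybridised to Illumina HT-12 v4 BeadChips. The authors deposited non-normalized intensities and detection p-values per probe and array, and a table of intensities that they normalized with BeadStudio. Which normalization BeadStudio applied is not given in the sources used here. The deposited detection p-value is small far below as well as far above background, so a probe counted as detected only if its p was under 0.01 and its signal exceeded the median of probes with p above 0.9 on its array. The deposited tables carry different probe names, and 48104 of 48107 probes were paired both ways by their ranks over all arrays (7.44% after shuffling). The platform annotation gave a single gene for 30113 probes, while 8 had several and 17986 had none.

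Non-normalized intensities were corrected by normexp with detection p-values and an offset of 16, quantile normalized and taken as log2 (limma 3.58.1, R 4.3.3). The 17049 probes that all arrays of 1 or more groups detected were fitted by lmFit and eBayes with trend over all 11 arrays, and p-values were adjusted by Benjamini-Hochberg over all of them (threshold 0.05). The steps were also run on simulated data, with the same changes put in at both times and no effect of the BeadChip on single probes. That run tried neither a true difference between the times nor the overlap of chip and treatment. Groups and replicate numbers are those in the titles. At 6 d the description gives number 1 to the vorinostat array whose title says 2, and likewise to the DMSO array whose title says 3, while the array name beside it carries the title's number. Of the value columns 0 were left out. All member probes are named, and of each other list at most 3 genes a direction and time with the largest called change. Members and lists were chosen with earlier results of these data known. Promoters were read from RefSeq (GRCh38.p14), and figures were drawn with Matplotlib 3.10.9. Alternatives were another scaling, background, filter, probe choice and test, the replicate block, the authors' table, and leaving out each array.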

Additional observations from a re-analysis of the deposited data

Results flagged for a closer look

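The effect of vorinostat differed between 6 d and 24 h for 3 member probes, by the test of the difference itself in limma. For CDKN1A (ILMN_1784602) the 6 d effect minus the 24 h effect was -1.35 on the log2 scale (adjusted p = 0.0171), for CDKN1B (ILMN_1722811) 0.79 (adjusted p = 0.00585) and for CDK4 (ILMN_1689001) 0.50 (adjusted p = 0.0152). In non-normalized log2 intensity the same differences were -1.33, -0.37 and -0.45, with a median of -0.62 over all probes tested, so the direction for CDKN1B and CDK4 rests on the scaling between arrays. In each of the 3 the normalized DMSO arrays also differed between 6 d and 24 h, by 1.09 for CDKN1A, -0.51 for CDKN1B and -0.40 for CDK4. Before normalization the mean log2 intensities in DMSO at 24 h and 6 d were 9.05 and 9.03 for CDKN1B, and 11.30 at both times for CDK4. In those values time and BeadChip cannot be told apart. At 24 h vorinostat and DMSO lay on separate BeadChips, so any difference between those chips enters the difference of the effects. It cannot be told apart from the effect of vorinostat at 24 h.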

How the results depend on the processing

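Over 40 combinations of probe and comparison and all alternatives (747 values), 711 kept their side of the threshold and, where called, their direction, 25 lost a call, 11 gained one and 0 called values changed sign. Some alternatives leave the fold change as it was, such as another filter or leaving out an array of the other time. The 711 are therefore not separate checks. In the comparison of vorinostat with DMSO at 24 h, 2 member probes were called. There were 4 in a fit of that time alone, 1 by the methods' test, an analysis of variance per probe (CCND1 lost, adjusted p = 0.148), and 1 to 3 with an array left out. At 6 d the 1 call became 0 by the methods' test (adjusted p = 0.273) and was 0 to 1 with an array left out. The difference of the effects had 2 to 4 calls in place of 3. DMSO at 6 d against 24 h had 5 calls, 0 by the methods' test and 4 to 5 with an array left out. Vorinostat at 6 d against 24 h had 1 call, 0 without the filter on dim probes, 0 by the methods' test and 0 to 2 with an array left out. The methods' test called 1486 probes higher and 929 lower of all probes at 24 h, against 2301 and 1606 by limma, and 1 and 1 at 6 d, against 511 and 801. Without vorinostat 6 d replicate 2 limma called 66 higher and 180 lower at 6 d. The cause was not tested. Scaling by medians moved the median log2 fold change of all probes at 24 h to -0.12.

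Same-numbered vorinostat and DMSO arrays deviated from their group means together with r of 0.0799, 0.165 and 0.238 at 24 h, and 6 of 6 arrays correlated best with their own number, while at 6 d r was 0.0879 and 0.0909. The methods describe 3 independent experiments at 24 h that included both treatments, but tie no array number to an experiment. The labels do not say that a number marks a shared culture, and not every pair at 24 h was above 0.1. The main fit therefore did not pair the samples, and the best matches at 24 h are a hint from the data. If the numbers mark those experiments, the main fit leaves out a pairing at 24 h. With the replicate block, CCND1 at 24 h had an adjusted p of 0.00031 and the brighter CDKN1B probe 0.00942, against 0.00299 and 0.00917 in the main fit (limma). The numbers at 6 d are those of the titles, from which the descriptions of 2 arrays differ, and the pairs and the block at 6 d rest on them. With the replicate block 3 member probes were called at 24 h (CCND3 joined, adjusted p = 0.0493 from limma), 1 at 6 d and 4 for the difference, where the dimmer CDKN1B probe joined (0.55, adjusted p = 0.0424). The block lies within each time, so it gave no value between times. A fit of one time alone and the methods' test gave no value for the difference, and the fit of one time alone gave none between times. On arrays, signal over background limits what can be seen, and 5 of 13 member probes were at it.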

Other observations

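The genes whose levels over the 11 arrays were most like those of CCND1 were GREM1, a secreted antagonist of bone morphogenetic proteins (r = 0.978), ELAVL4, a neuronal RNA-binding protein (r = 0.977), and RNF4, a ubiquitin ligase that recognises SUMO chains (r = 0.959). For CDKN1A they were EIF3A, a subunit of translation initiation factor 3 (r = 0.953), SCARNA9, a small Cajal body RNA (r = 0.923), and NOA1, a mitochondrial GTPase (r = 0.915). These are Pearson correlations of normalized log2 intensity over arrays that share treatment, time and BeadChip, given as a description. CDKN1C was too dim to be set against other genes.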
